A study of Homo sapiens with 6 samples.

Results

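MIR100HG, a long noncoding RNA, was knocked down with either of 2 short hairpin RNAs in MDA-MB-231, a line of triple-negative breast cancer cells. The genes described here are 40 genes of the ATF4 stress response and of cytosolic tRNA charging, named individually for their known roles. They were found by symbol in the deposited count table, and were chosen with earlier results of these data known. All 40 were among the 27745 genes of the table, and all 40 were among the 15372 genes that passed the filter on low counts and were tested. The paper describes infecting cells with lentivirus that delivers hairpins from the vector pLKO.1, with sh-TRC as the control construct. The control samples CTR1 and CTR2 received sh-TRC. The KD1 samples (KD1-1 and KD1-2) carried sh-MIR100HG-1 and the KD2 samples (KD2-1 and KD2-2) carried sh-MIR100HG-2. Values of a group are given in the order of its replicate numbers. Each group had 2 replicates, which the study names biological for KD1 and KD2, all samples came from a single cell line, and no uninfected cells were analysed here. P-values over 2 samples a group measure only the spread between these cultures.

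ATF4 is a transcription factor that is made mainly when translation slows. Kinases that sense missing amino acids, unfolded protein in the endoplasmic reticulum, double-stranded RNA or low heme phosphorylate the initiation factor eIF2, which lowers protein synthesis as a whole but lets ribosomes reach the ATF4 coding sequence. ATF4, with partners of the C/EBP family, then switches on genes that make and import amino acids, charge tRNAs and, through feedback genes such as PPP1R15A and TRIB3, damp the response again. Much of the control of ATF4 is thus exerted on its translation and protein stability, which RNA counts do not measure.

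Total counts ranged from 43804736 to 64588388 per sample, with a median of 51553219.5. MIR100HG (ENSG00000255248.7_2), the targeted gene, had 41.9 CPM (counts scaled to library size, here TMM-normalized counts per 1e6) in CTR1 and 58.5 in CTR2, and 15.2, 13.2, 16.6 and 10.4 CPM in KD1-1, KD1-2, KD2-1 and KD2-2. The knockdown samples all lay below both controls, and knockdown, taken as the average of the shRNA groups, gave a log2 fold change (log2FC) against control of -1.86 with a standard error of 0.25 (adjusted p = 0.381 by edgeR's quasi-likelihood test, Benjamini-Hochberg adjustment). The labelled cell line had high mesenchymal VIM, from 1607 to 2095 CPM, and PGR at or near 0, whereas SPARC was low at 1.96 to 6.41 CPM and ERBB2 was present at 71.6 to 116 CPM. The receptor ESR1 was at 2.38 CPM in CTR2 and 2.79 in KD1-1, but at 0.12 to 0.59 in the other samples. Of the epithelial markers, KRT19 was at 320 to 713 CPM, whereas EPCAM and CDH1 were at most 13.0 and 7.05 CPM. With that test 0 genes passed an adjusted p of 0.05 in any comparison, 0% of those tested, whereas edgeR's likelihood ratio test called 109 genes and DESeq2 129 for knockdown against control. None of the 40 genes was called by any of these 3 tests in any comparison, so the values below describe directions and spreads, with unadjusted p-values from the quasi-likelihood test. Without the filter on low counts that test called 392 genes for knockdown against control, among them CHAC1, SESN2, PSAT1 and TRIB3 of the 40, with adjusted p-values from 0.0073 to 0.0361 (edgeR's quasi-likelihood test).

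As a group, the 40 genes lay higher after knockdown, but unevenly over the samples. The log2FC of knockdown against control was above 0 in 35 of the 40, with a median of 0.26, against 45.6% of all genes tested and a median of -0.04. With sh-MIR100HG-1 it was above 0 in 35 genes (median 0.50, against 49.7% and a median of -0.0037 over all genes). With sh-MIR100HG-2 it was above 0 in 28 genes (median 0.19, against 45.8% and -0.04). The median of the 40 with sh-MIR100HG-1 was 0.23 without KD1-2, and that with sh-MIR100HG-2 was -0.25 without KD2-2, so the sign of the latter depended on 1 sample. Both shRNAs were compared with the same control samples, so their values are not independent of each other. The 40 genes were chosen with earlier results of these data known, so the choice may not be independent of these values.

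At an unadjusted p under 0.05, 2 of the 40 genes differed for knockdown against control, CHAC1 and SLC7A1, both higher, where 7.68% of all genes tested did so in either direction and 3.23% upwards. With sh-MIR100HG-1 there were 7 genes, all higher (CHAC1, VLDLR, PSAT1, MTHFD2, SLC7A1, EPRS1 and GARS1), against 6.87% of all genes in either direction and 3.10% upwards. With sh-MIR100HG-2 there were 2, CHAC1 higher and ATF3 lower, against 8.86% of all genes. In either direction, of these 3 comparisons only that with sh-MIR100HG-1 had a share, 17.5%, above its background, and its count became 0 genes without CTR2 and 1 gene without KD1-2. Without KD2-1 the count for knockdown against control was 15, and without KD1-2 it was 1.

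**Figure D1:**
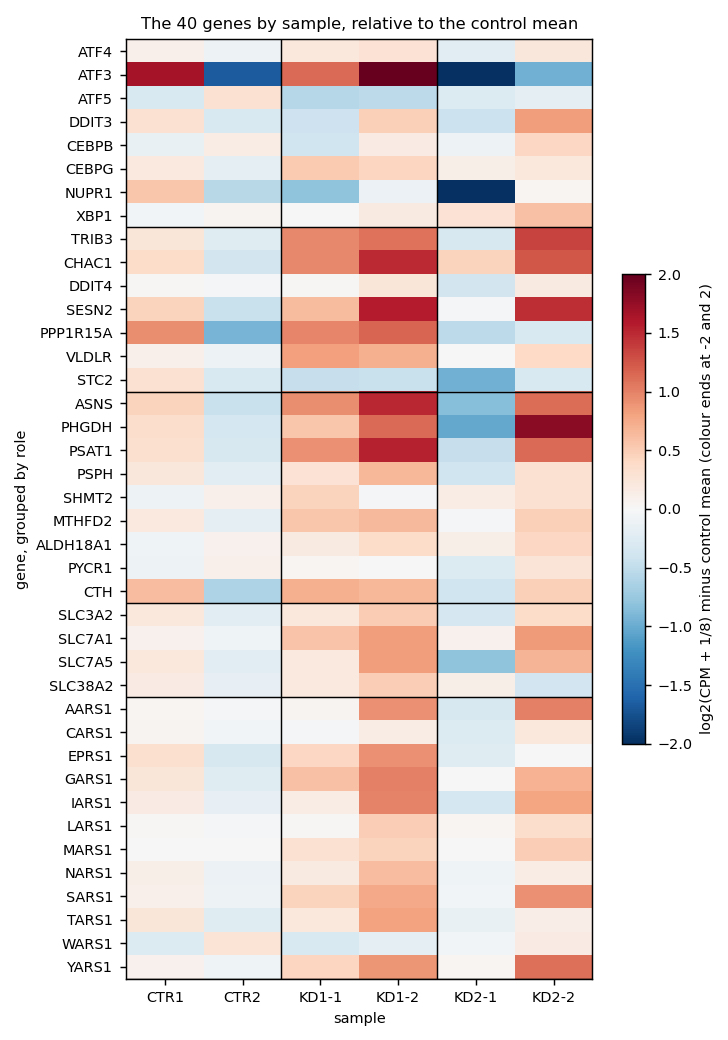
Heatmap of log2(CPM + 1/8) minus the mean of both controls for the 40 genes (rows, grouped by role) in the 6 samples (columns). KD1-2 and KD2-2 hold the highest value of 32 of the 40 genes, and CTR2 and KD2-1 the lowest value of 33.

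Replicates of the same group differed widely in these genes. The sum over the 40 genes was 6875 and 5393 CPM for the controls, 7413 and 9618 for KD1 and 5261 and 8028 for KD2. KD2-1 was therefore the lowest of the 6 samples, below both controls. MIR100HG was at 16.6 CPM in KD2-1, below both controls but the highest of the knockdown samples (15.2, 13.2 and 10.4 CPM in KD1-1, KD1-2 and KD2-2). Whether the level of MIR100HG had a part in these sums was not tested. The highest value lay in KD1-2 or KD2-2 for 32 of the 40 genes, against 40.2% of all genes tested. The lowest lay in CTR2 or KD2-1 for 33, against 29.7%. These are the samples where the 40 genes most often had their highest and lowest values, so the pairs are not independent of those values.

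Counted sample by sample, 34 of the 40 genes lay above both controls in KD1-2 and 30 in KD2-2, where 36.7% and 34.3% of all genes did so. In KD1-1 there were 25 (33.4% of all genes), and in KD2-1 there were 6 (33.0%). KD2-2 lay above KD2-1 in 39 of the 40 genes, with a median log2 difference of 0.60 and 25 genes above 0.5, against 15.2% of all genes tested. KD1-2 lay above KD1-1 in 35 (median 0.30), 13 of them by more than 0.5, against 12.0% of all genes. In the control the direction was the other way, CTR1 lying above CTR2 in 33 genes (median of CTR2 minus CTR1, -0.36), 12 of them by more than 0.5, against 18.1% of all genes. Across all genes tested, same-numbered samples of the shRNA groups also deviated together (correlation 0.50), while those of the control did so with neither (-0.21 and 0.02). Whether this shared difference had a part in the values of the 40 genes was not tested. In bulk RNA, a difference in a share of the cells and a smaller one in all of them cannot be told apart.

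**Figure D2:**
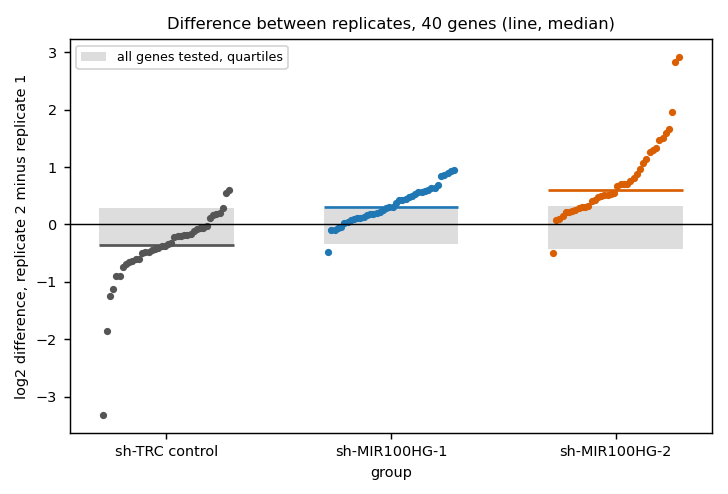
Log2 difference between the replicates of each group (replicate 2 minus replicate 1) for each of the 40 genes, sorted. Coloured lines are medians of the 40 genes (-0.36, 0.30 and 0.60), and grey boxes span the quartiles of all 15372 genes tested.

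Some of the 40 genes hold a known ATF4 binding element near their start. The C/EBP-ATF response element, which ATF4 binds together with a C/EBP partner, has the core TGATGNAAN, and it was searched on both strands of RefSeq promoter windows (GRCh38.p14) that run from 250 bases before to 50 bases after each start site. Windows were given for 34 of the 40 genes (not for NUPR1, PSPH, SHMT2, PYCR1, LARS1 and YARS1). Of these, 13 held the core in at least 1 window, 38.2%, against 4.45% of the 27305 genes with a window and 2.90% of the 11722 of them that were tested here. The 40 were named as genes of the ATF4 response, a role that this element helped to define, so the choice of genes is not independent of it. Among the synthetases 7 of 10 held it, whereas 0 of 9 other cytosolic synthetase and scaffold genes did. It was also read in 6 of 15 other ATF4 targets (40%) and in 3 of 11 interferon response genes (27.3%).

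Windows of 8 of these genes are shown because they include 3 genes at an unadjusted p under 0.05 with sh-MIR100HG-1 (CHAC1, SLC7A1 and GARS1), the classic target ASNS, the ATF4 partner CEBPG and 3 synthetases. Capitals mark the core as read on the strand of the gene, and on the opposite strand it appears in reverse complement.
CHAC1: ctcccctgccGTTGCATCActcctgccag
SLC7A1: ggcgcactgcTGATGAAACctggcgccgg
GARS1: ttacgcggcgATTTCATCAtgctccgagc
ASNS: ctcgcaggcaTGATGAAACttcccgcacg
CEBPG: gcgcggcgtcTGATGCAACctgccggcaa
AARS1: ttttctcgcaGTTGCATCAgccaagttag
IARS1: ttttcagcgcGTTGCATCAcctccgtgcg
MARS1: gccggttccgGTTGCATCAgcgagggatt

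The windows lie at chr15:40953251-40953279 on the plus strand for CHAC1, chr13:29595663-29595691 on the minus strand for SLC7A1, chr7:30594834-30594862 on the plus strand for GARS1 and chr7:97872458-97872486 on the minus strand for ASNS. They lie at chr19:33374061-33374089 (plus) for CEBPG, chr16:70289676-70289704 (minus) for AARS1, chr9:92293693-92293721 (minus) for IARS1 and chr12:57488053-57488081 (plus) for MARS1. The same 9 letters, TGATGCAAC, were read in 7 genes, CHAC1, CEBPG, AARS1, CARS1, IARS1, MARS1 and NARS1, and TGATGAAAC in ASNS and SLC7A1. The core sat upstream of the start site in CHAC1, from position -210 to -202, and in ASNS, from -68 to -60, but downstream of it in SLC7A1, from 8 to 16.

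Genes with and without the core had similar values. The median log2FC of knockdown against control was 0.32 in the 13 genes with it and 0.27 in the 21 genes without it. With sh-MIR100HG-1 the medians were 0.55 and 0.54, and with sh-MIR100HG-2 they were 0.27 and 0.17. A match is a description of the letters in these windows, and other windows and binding itself were not analysed here.

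The RNA of ATF4 itself differed little between the groups. ATF4 (ENSG00000128272.14_1, chromosome 22 from 39915700 to 39918690, GRCh37) had 263 and 230.4 CPM in the controls, 286 and 299.7 in the KD1 samples and 213 and 287 in the KD2 samples. The control and knockdown samples overlapped, since KD2-1 lay below both controls. Group means with SD (n = 2 each) were 247 ± 23.2 CPM for control, 293 ± 10.1 CPM for KD1 and 250.2 ± 52.4 CPM for KD2. The log2FC of knockdown was 0.13 with a standard error of 0.19 (unadjusted p = 0.512, edgeR's quasi-likelihood test). An exact two-sided permutation test of 4 knockdown against 2 control samples gave p = 0.467.

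DDIT3, which encodes CHOP, the factor that links prolonged stress to cell death, measured 25.8 and 16.9 CPM in the controls, then 15.6 and 29.1 in KD1, then 15.5 and 37.2 in KD2. Its replicates differed by 1.87-fold in sh-MIR100HG-1 and by 2.4-fold in sh-MIR100HG-2, and the groups overlapped fully. The log2FC of knockdown was 0.18 with a standard error of 0.40, and it turned negative without CTR2, KD1-2 or KD2-2, the lowest value being -0.20 without KD2-2. DDIT3 (chromosome 12 from 57910371 to 57914300, minus strand) overlaps the end of the synthetase gene MARS1 (from 57869228 to 57911352, plus strand), and whether reads were counted by strand is not given in the sources used here.

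ATF3, a stress-induced repressor and partner of ATF4, spanned 17.7 to 354 CPM. It stood at 267 and 26.7 CPM in CTR1 and CTR2, at 186 and 354 in KD1-1 and KD1-2, and at 17.7 and 43.4 in KD2-1 and KD2-2. It was thus high in CTR1 and KD1 and low in CTR2 and KD2. The log2FC was -2.27 with sh-MIR100HG-2 against control (standard error 0.90, unadjusted p = 0.0345, edgeR's quasi-likelihood test), and it was 0.19 without CTR1. For KD2 against KD1 it was -3.14 (standard error 0.93, unadjusted p = 0.0091 and adjusted p = 0.509 by the same edgeR test), and its range was -3.93 to -2.58 over the fits that each left out 1 sample.

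Pseudogene copies exist of ATF4, PSAT1, PSPH and MTHFD2, and how reads that match several places were counted is not given in the sources used here. The other factors lay closer to their controls. CEBPG, the C/EBP partner of ATF4, had a log2FC of 0.31 (standard error 0.19) after knockdown, XBP1, the factor spliced by IRE1, 0.27 (0.18) and CEBPB 0.04 (0.24). ATF5, a translationally controlled relative of ATF4, was at -0.42 (0.23). NUPR1, a small stress-induced chromatin protein, was at -0.74 (0.73) with only 0.353 to 5.03 CPM. Over the 8 factors the median log2FC of knockdown was 0.09, and 5 of them were above 0.

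**Figure D3:**
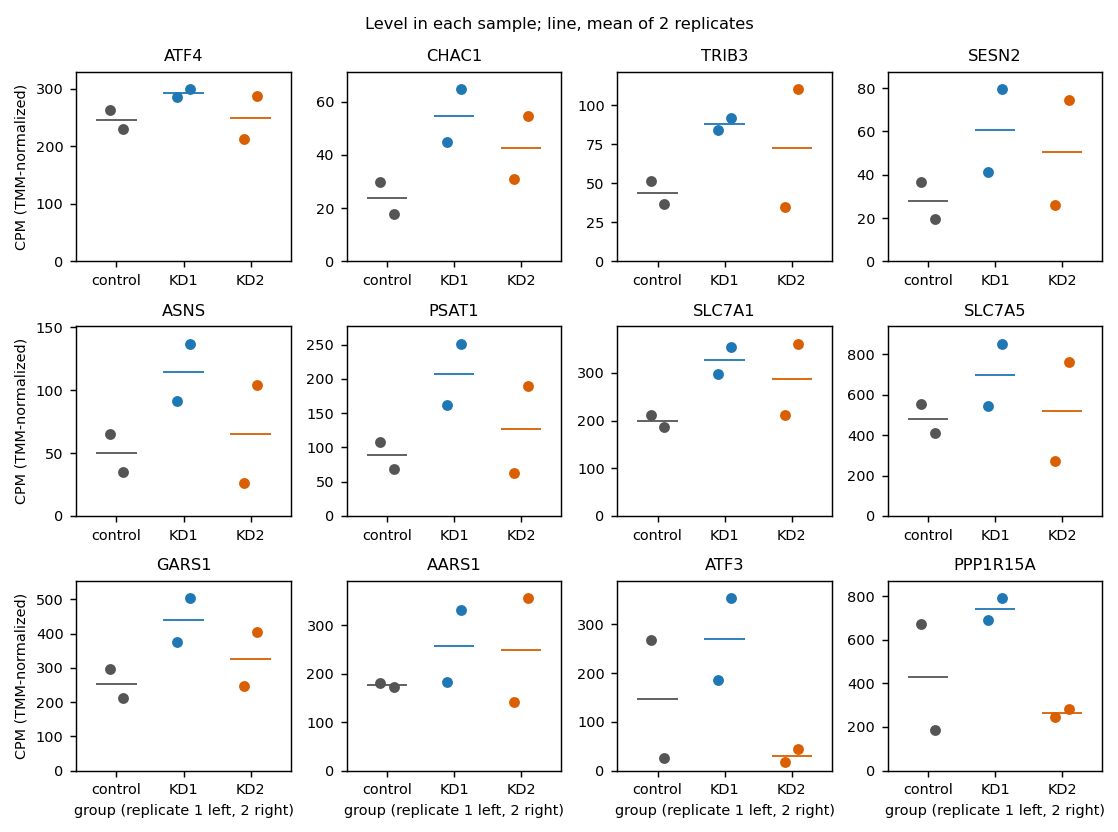
TMM-normalized CPM (vertical axes, from 0) of 12 of the genes in each sample; KD1 is sh-MIR100HG-1, KD2 is sh-MIR100HG-2, dots are samples and lines are means of 2 replicates. ATF4 spans 213 to 299.7 CPM, the targets are high in KD1-2 and KD2-2, and ATF3 and PPP1R15A are high in CTR1 and both KD1 samples.

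The highest log2FC of knockdown among the 40 genes was that of the feedback gene CHAC1. CHAC1 (ENSG00000128965.11_1, chromosome 15 from 41245160 to 41248717), an enzyme that degrades glutathione, had 29.6 and 17.7 CPM in the controls, 44.8 and 64.7 in the KD1 samples and 31.1 and 54.5 in the KD2 samples. All 4 knockdown samples lay above both controls, KD2-1 narrowly. The log2FC of knockdown was 1.03 with a standard error of 0.33 (unadjusted p = 0.0126 and adjusted p = 0.545, edgeR's quasi-likelihood test). An exact permutation test (two-sided, 4 samples against 2) gave p = 0.0667, the smallest p that this design allows.

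For each shRNA alone, CHAC1 had a log2FC of 1.21 (standard error 0.36) in KD1 and 0.85 (0.36) in KD2. Leaving out any single sample kept the log2FC of knockdown between 0.71 and 1.45. Besides CHAC1, all 4 knockdown samples lay above both controls in SLC7A1 and ALDH18A1, 3 of the 40 genes against 8.40% of all genes tested. In none of the 40 did all 4 lie below, against 9.08%. For SLC7A1 this rests on a near tie, with KD2-1 and CTR1 both at 212.6 CPM after rounding. For ALDH18A1 KD2-1 was at 130.4 CPM against 128 in CTR2.

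TRIB3, a pseudokinase that binds ATF4 and limits its output, measured 51.5 and 36.6 CPM in the controls, then 84.6 and 91.9 in KD1, then 34.8 and 110.4 in KD2. SESN2, a stress-induced brake on mTORC1 that senses leucine, had 36.6 and 19.5 CPM in the controls, 41.4 and 79.5 with sh-MIR100HG-1, and 26.1 and 74.6 with sh-MIR100HG-2. In both genes 3 knockdown samples exceeded the controls and KD2-1 did not, with a 3.17-fold difference between the sh-MIR100HG-2 replicates for TRIB3 and a 2.86-fold difference for SESN2. After knockdown the log2FC was 0.86 for TRIB3 (standard error 0.41, unadjusted p = 0.069, edgeR's quasi-likelihood test) and 0.98 for SESN2 (standard error 0.47, unadjusted p = 0.0714, same edgeR test).

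VLDLR, a lipoprotein receptor induced under endoplasmic reticulum stress, stood at 16.7 and 14.5 CPM in CTR1 and CTR2, at 27.5 and 25.6 in KD1-1 and KD1-2, and at 15.5 and 20.6 in KD2-1 and KD2-2. Its sh-MIR100HG-1 samples lay apart from the controls, with a log2FC of 0.77 (standard error 0.25, unadjusted p = 0.0153, edgeR's quasi-likelihood test), and its sh-MIR100HG-2 samples lay close to them, with a log2FC of 0.21 (standard error 0.25). The test of KD2 against KD1 gave -0.56 (unadjusted p = 0.0574, same edgeR test).

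PPP1R15A, which encodes GADD34, the phosphatase subunit that removes the phosphate from eIF2, was high and low in the same samples as ATF3. It had 673 and 185 CPM in the controls, 691 and 791 in the KD1 samples and 245 and 284 in the KD2 samples. The shRNA groups did not overlap, while CTR1 lay near the sh-MIR100HG-1 samples and CTR2 below the sh-MIR100HG-2 samples. The log2FC of KD2 against KD1 was -1.49 (standard error 0.49, unadjusted p = 0.0161, edgeR's quasi-likelihood test). Of the other feedback genes, DDIT4, an inhibitor of mTORC1, was at a log2FC of 0.03 (standard error 0.21) after knockdown and STC2, a secreted glycoprotein, at -0.57 (0.33).

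Between the shRNAs, 3 of the 40 genes had an unadjusted p under 0.05, ATF3, PPP1R15A and EPRS1, all lower with sh-MIR100HG-2, against 9.45% of all genes tested. The log2FC of KD2 against KD1 was below 0 in 34 of the 40, with a median of -0.27 against -0.01 over all genes. This median was 0.10 without KD2-1 and -0.65 without KD2-2, so its sign depended on 1 sample, and the count of 3 became 15 without KD2-2.

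All 9 amino acid enzymes had a log2FC of knockdown above 0, with a median of 0.27 and a range from 0.02 to 0.92. ASNS (ENSG00000070669.16_2, chromosome 7 from 97481430 to 97501854), which makes asparagine, measured 65.5 and 35 CPM in the controls, then 91.4 and 137 in KD1, then 26.6 and 104 in KD2. Apart from KD2-1, the lowest of all samples, the knockdown samples lay above both controls, and KD2-2 was 3.90-fold above KD2-1. The log2FC was 1.18 (standard error 0.57) in KD1 and 0.38 (0.57) in KD2.

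Serine is made by PHGDH, PSAT1 and PSPH in that order. PSAT1 stood at 108 and 69.0 CPM in CTR1 and CTR2, at 162 and 251 in KD1-1 and KD1-2, and at 63.0 and 190.0 in KD2-1 and KD2-2. Its order of samples was that of ASNS, and its log2FC with sh-MIR100HG-1 was 1.22 (standard error 0.49, unadjusted p = 0.0352, edgeR's quasi-likelihood test).

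PHGDH, the entry enzyme, was low, with 4.10 and 2.48 CPM for the controls, 4.76 and 7.11 for KD1 and 1.5 and 11.5 for KD2. The sh-MIR100HG-2 replicates differed by 7.68-fold, and the log2FC of knockdown, 0.92 with a standard error of 0.69, was -0.14 without KD2-2. Per kilobase of gene length, the control level of PHGDH was 0.585 CPM against 40.5 for PSAT1 and 13.1 for PSPH. In the controls the entry enzyme thus had the lowest level per length of the 40 genes, whereas in KD1 and KD2 NUPR1 and STC2 lay below it.

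MTHFD2, a mitochondrial folate enzyme, had 48.4 and 37.2 CPM in the controls, 62.3 and 66.8 in the KD1 samples and 41.3 and 59.0 in the KD2 samples. Its sh-MIR100HG-1 samples lay above both controls, with a log2FC of 0.59 (standard error 0.25, unadjusted p = 0.0471, edgeR's quasi-likelihood test). ALDH18A1, which starts proline synthesis, differed less but in all 4 knockdown samples, with 114 and 128 CPM in the controls and 137, 155, 130.4 and 162 CPM in KD1-1, KD1-2, KD2-1 and KD2-2. SHMT2, which feeds serine carbon into the mitochondrial folate cycle, was at a log2FC of 0.22 (standard error 0.20), and PYCR1, the last enzyme of proline synthesis, at 0.02 (0.21). CTH, which makes cysteine from cystathionine, was at 0.27 (0.39), with 14.1 CPM in CTR1 but 5.88 in CTR2.

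All 4 amino acid transporters had a log2FC of knockdown above 0, from 0.11 to 0.61. SLC7A1 (ENSG00000139514.12_2, chromosome 13 from 30083547 to 30169825), which imports arginine and lysine, measured 213 and 187 CPM in the controls, then 298 and 355 in KD1, then 213 and 361 in KD2. KD2-1 was at the level of CTR1, and the other 3 knockdown samples were clearly apart from the controls. The log2FC of knockdown was 0.61 (standard error 0.25, unadjusted p = 0.0357 and adjusted p = 0.637, edgeR's quasi-likelihood test), with a range from 0.39 to 0.78 over the fits without 1 sample.

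SLC7A5, the light chain of the LAT1 exchanger of large neutral amino acids, stood at 552 and 412 CPM in CTR1 and CTR2, at 546 and 852 in KD1-1 and KD1-2, and at 273 and 762 in KD2-1 and KD2-2. KD2-1 lay below both controls, and the log2FC of knockdown, 0.32 (standard error 0.39), was -0.15 without KD2-2. Its heavy chain SLC3A2 followed the same order of samples in KD2, 191 against 311 CPM. SLC38A2, which imports small neutral amino acids, had the opposite order in KD2, with 519 CPM in KD2-1 and 367 in KD2-2, and was the only gene of the 40 to do so.

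**Figure D4:**
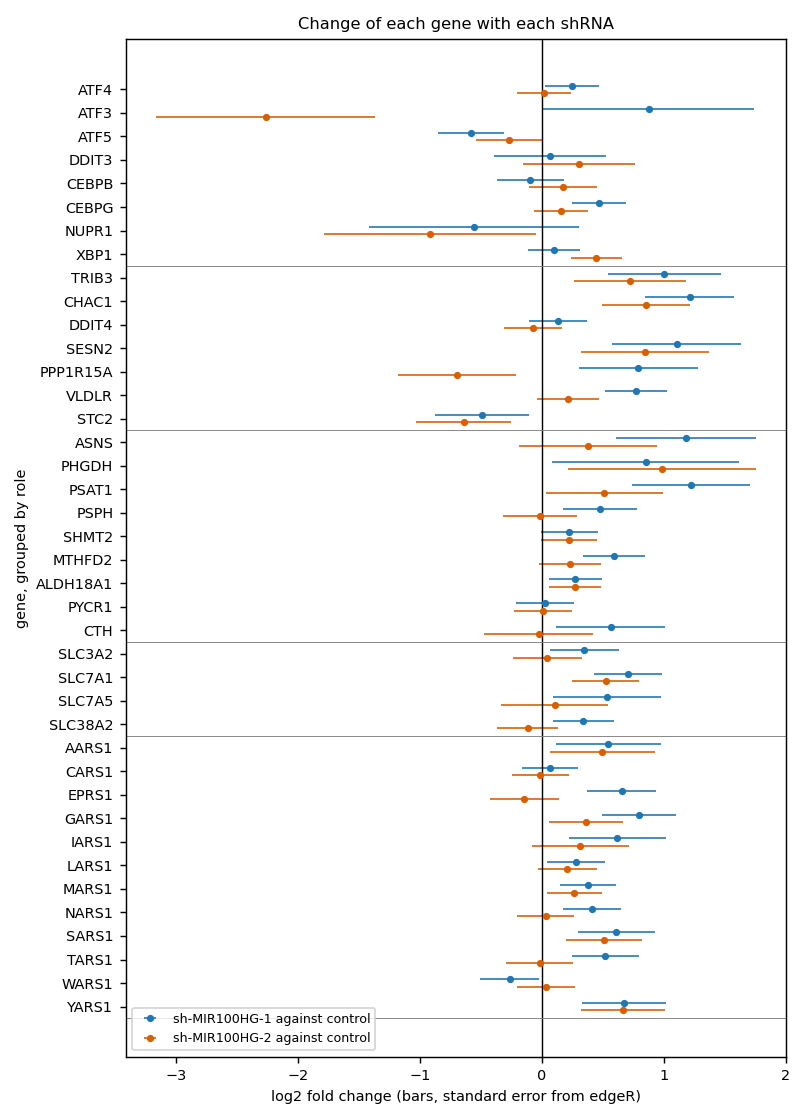
Log2 fold change of each of the 40 genes (rows, grouped by role) against control, with KD1 (sh-MIR100HG-1) in blue and KD2 (sh-MIR100HG-2) in orange; bars are standard errors from edgeR. Most points lie right of 0, 35 of 40 for KD1 and 28 of 40 for KD2, and ATF3 is the point farthest left.

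Of the 12 cytosolic synthetases, enzymes that load amino acids onto their tRNAs, 11 had a log2FC of knockdown above 0, with a median of 0.29. Their summed level was 2556 and 2254 CPM for the controls, 2782 and 3864 for KD1 and 2189 and 3469 for KD2. KD1-2 and KD2-2 thus stood above the other 4 samples and KD2-1 below all of them.

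GARS1 (ENSG00000106105.13_1, chromosome 7 from 30634297 to 30673649), the glycyl enzyme, had 295 and 211 CPM in the controls, 374 and 503 in the KD1 samples and 247 and 403 in the KD2 samples. Again 3 knockdown samples exceeded the controls and KD2-1 lay between them. The log2FC was 0.79 with sh-MIR100HG-1 (standard error 0.30, unadjusted p = 0.0289, edgeR's quasi-likelihood test) and 0.36 with sh-MIR100HG-2 (standard error 0.30).

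EPRS1, the fused glutamyl and prolyl enzyme, measured 246 and 157 CPM in the controls, then 263 and 371 in KD1, then 166 and 198 in KD2. It was highest with sh-MIR100HG-1, at a log2FC of 0.65 (standard error 0.28, unadjusted p = 0.0484, edgeR's quasi-likelihood test), and the log2FC of KD2 against KD1 was -0.80 (standard error 0.28, unadjusted p = 0.0218, same edgeR test). WARS1, the tryptophanyl enzyme, which interferon also induces, was the exception, with 241 and 353 CPM for the controls, 237 and 257 for KD1 and 281 and 326 for KD2. Its highest sample was a control, and its log2FC of -0.12 (standard error 0.21) became 0.18 without CTR2.

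The 9 other synthetases had log2FC values of knockdown from 0.03 for CARS1 (standard error 0.20) to 0.67 for YARS1 (0.30). AARS1 and IARS1, the alanyl and isoleucyl enzymes, showed the largest differences between replicates, with 1.82-fold and 1.79-fold in sh-MIR100HG-1 and 2.53-fold and 2.20-fold in sh-MIR100HG-2. For AARS1 the controls were at 180.2 and 171 CPM, KD1-1 and KD2-1 at 182 and 140.4, and KD1-2 and KD2-2 at 331 and 355. SARS1 was at a log2FC of 0.56 (0.28), AARS1 at 0.52 (0.38), IARS1 at 0.47 (0.35), MARS1 at 0.32 (0.20), TARS1 at 0.25 (0.24), LARS1 at 0.24 (0.21) and NARS1 at 0.22 (0.21), with standard errors in parentheses.

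The medians of the synthetases that are not among the 40 genes varied less between samples. Relative to the control mean, the median log2 level of the 12 synthetases was 0.09 and -0.09 for the controls, 0.20 and 0.78 for KD1 and -0.07 and 0.43 for KD2. Over 11 other cytosolic synthetase and scaffold genes the medians were 0.02, -0.02, 0.07, 0.12, 0.08 and 0.10 in the same order, and over 17 mitochondrial synthetases they lay between -0.13 and 0.08. At an unadjusted p under 0.05, 0 of the 11 and 0 of the 17 differed from control in any of the 3 comparisons with control (edgeR's quasi-likelihood test). Of the 12 synthetases, 2 did so in KD1, but 0 in KD2 and 0 for the average of the shRNA groups. The shares of all genes tested were 6.87%, 8.86% and 7.68% in that order. In lists this short, a count of 0 cannot be told apart from such shares. Medians hide single genes that differ, such as the mitochondrial EARS2, which spanned 9.63 to 23.7 CPM, and the differences between these lists were not tested.

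**Figure D5:**
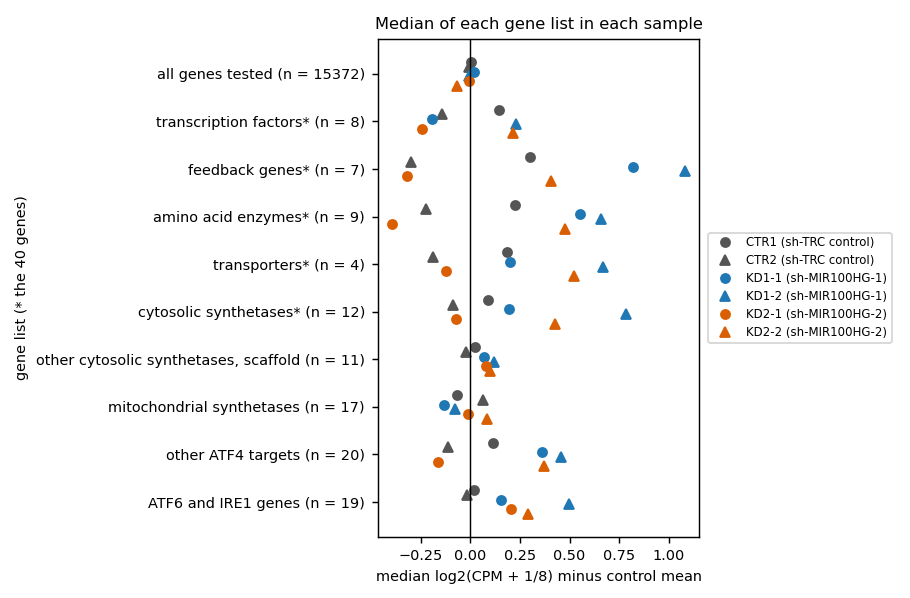
Median over each gene list (rows) of log2(CPM + 1/8) minus the control mean, in each sample; asterisks mark the roles of the 40 genes, circles are replicates 1 and triangles replicates 2. The 12 synthetases spread from -0.09 to 0.78 and the 11 other cytosolic synthetase and scaffold genes from -0.02 to 0.12.

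Further genes of the pathway were taken from other lists. Of 13 genes for the eIF2 kinases, eIF2 and its exchange factor eIF2B, 11 had a log2FC of knockdown above 0. With sh-MIR100HG-1 there were 7, a share of 53.8% against 49.7% of all genes tested. With sh-MIR100HG-2 there were 11, a share of 84.6% against 45.8%. For knockdown against control 2 of the 13 (15.4%) had an unadjusted p under 0.05, both higher, against 7.68% of all genes. With sh-MIR100HG-1 there were 3 (23.1%), all higher, against 6.87%, and with sh-MIR100HG-2 there were 0, against 8.86%. In 4 of the 13 all 4 knockdown samples lay above both controls, against 8.40% of all genes. EIF2AK3, which encodes PERK, the kinase that senses unfolded protein, had 20.8 and 20.9 CPM in the controls and 29.5, 43.9, 25.5 and 30.1 CPM in KD1-1, KD1-2, KD2-1 and KD2-2, and all 4 knockdown samples lay above both controls. PPP1R15B, the constitutive partner of the eIF2 phosphatase, had 126 and 83.5 CPM in the controls and 147, 222, 133 and 185 CPM in the knockdown samples in the same order, again without overlap. Knockdown gave a log2FC of 0.62 for EIF2AK3 (standard error 0.23, unadjusted p = 0.0282, edgeR's quasi-likelihood test) and 0.71 for PPP1R15B (standard error 0.27, unadjusted p = 0.0305, same edgeR test).

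Of 21 other known ATF4 targets 20 were tested (CBS was not), and 14 had a log2FC of knockdown above 0. After knockdown 3 (15%) had an unadjusted p under 0.05, NIBAN1, MTHFD1L and EIF4EBP1, all higher, against 7.68% of all genes. With sh-MIR100HG-1 there were 5 (25%), all higher, against 6.87% of all genes, and with sh-MIR100HG-2 there was 1 (5%), SLC7A11, which was lower, against 8.86%. Their median over genes was 0.11 and -0.11 for the controls, 0.36 and 0.46 for KD1 and -0.16 and 0.37 for KD2, the order seen in the 40 genes. SLC7A11, the cystine importer, was instead high in CTR1 and KD1 and low in CTR2 and KD2, the split of ATF3 and PPP1R15A, with 101 and 33.6 CPM in the controls, 91.7 and 74.2 in KD1 and 17.8 and 30.5 in KD2.

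Of 19 genes of the ATF6 and IRE1 arms of the unfolded protein response, 17 had a log2FC of knockdown above 0 (median 0.28). For knockdown 2 (10.5%), DNAJB9 and EDEM1, had an unadjusted p under 0.05, near the 7.68% of all genes. With sh-MIR100HG-1 there were 4 (21.1%), all higher, against 6.87%, and with sh-MIR100HG-2 there were 0, against 8.86%. In 6 of the 19 all 4 knockdown samples lay above both controls, against 8.40% of all genes. HSPA5, the chaperone BiP, had 1317 and 1185 CPM in the controls, 1672 and 3324 in KD1, and 1239 and 2814 in KD2. Its highest samples were those of the 40 genes, but the list as a whole did not follow that order in KD2. Over the 19 genes the median of KD2-2 minus KD2-1 was 0.05 log2, against 0.60 for the 40 genes. For KD1-2 minus KD1-1 the medians were 0.41 and 0.30. XBP1 splicing was not analysed here.

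Genes of another response had a different order of samples. Of 16 interferon response genes 4 (25%) had an unadjusted p under 0.05 after knockdown, all lower, against 7.68% of all genes. With sh-MIR100HG-1 there were 8, all lower, against 6.87%, whereas with sh-MIR100HG-2 there was 1, also lower, against 8.86%, and the median log2FC was -0.04. MX1, an antiviral GTPase, had 98.1 CPM in CTR1 and 363 in CTR2, 43.0 and 47.5 in the KD1 samples and 303 and 155 in the KD2 samples, and was thus low where ATF3 was high. The 16 genes did not share this split. CTR2 lay more than 0.5 log2 above CTR1 in 7 of them and more than 0.5 below it in 4. Summed over the 16 genes the level ranged from 5269 to 5590.4 CPM in the controls and from 2969 to 5857 CPM in the knockdown samples, and none was at 0 in all samples. Of 10 hypoxia response genes 0 had an unadjusted p under 0.05 after knockdown with edgeR's quasi-likelihood test. The share of counts from mitochondrial genes was 3.46% in CTR1, 3.30% in KD1-1 and 3.38% in KD1-2, but 2.41% in CTR2, 1.52% in KD2-1 and 1.84% in KD2-2, the same split of samples as for ATF3. Whether this share, or the interferon genes, had a part in the values of ATF3, PPP1R15A and SLC7A11 was not tested.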

How the data were processed

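Total RNA of 6 cultures of MDA-MB-231 cells was sequenced, 2 for each of 3 groups. Per the study's methods and the submitters' processing notes, the authors trimmed barcodes, mapped reads to GRCh37 with STAR (version 2.5.2a in the notes), assigned them to exons with FeatureCounts and deposited raw counts per gene, with neither normalization nor pooling. The deposited Length column, other than a measurement, gives the summed exon length of each gene in bases.

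Symbols were taken from a table of gene identifiers for 26966 of the 27745 genes. A filter took out the 12373 genes that had fewer than 5 counts in 3 or more of the samples, which left 15372. Counts were normalized with TMM and tested with edgeR's quasi-likelihood test (edgeR 4.0.16, R 4.3.3) in a single model of 3 groups, with 3 residual degrees of freedom, with Benjamini-Hochberg adjustment over those 15372 genes. The script was checked on simulated counts. Replicates varied by 27.8% (edgeR's common biological coefficient of variation), and the lowest counts of the 40 genes were those of NUPR1 (16 to 270) and PHGDH (68 to 576). CPM are TMM-normalized, CPM per kilobase were divided by the deposited length, and sample medians used log2(CPM + 1/8). Single genes were also compared by an exact permutation test. Promoter windows were taken from RefSeq (GRCh38.p14), while gene coordinates are those of the deposited table (GRCh37).

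The methods name both edgeR's quasi-likelihood and its likelihood ratio test, so the latter was an alternative, beside DESeq2 1.42.0, the bias-adjusted quasi-likelihood fit, another normalization, no filter, a replicate block and leaving out each sample. The 40 genes and all gene lists were chosen with earlier results of these data known. Values in every sample are given for ATF4, DDIT3, TRIB3, CHAC1, ASNS, PSAT1, PHGDH, MTHFD2, SLC7A5, SESN2 and WARS1 whatever their values, and for every other gene of the 40 at an unadjusted p under 0.05 in any comparison. ALDH18A1 and AARS1 were added after their values were seen. Of each other list, at most 4 genes at that p in any comparison were named, and which of these are given sample by sample was chosen after their values were seen. The mitochondrial EARS2 was named outside this rule, for its spread, and did not reach that p in any comparison with control.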

Additional observations from a re-analysis of the deposited data

How the results depend on the processing

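Directions mostly held. For single genes, 135 of the alternatives that changed the test, filter, normalization or model kept the direction and side of the threshold and 9 passed the threshold, all without the filter on low counts: CHAC1 (log2FC of knockdown 1.04), PSAT1 (0.87), SESN2 (0.98) and TRIB3 (0.87), CHAC1 (1.2) and PSAT1 (1.21) with sh-MIR100HG-1, ATF3 with sh-MIR100HG-2 (-2.24), and, between the shRNAs, ATF3 (-3.12) and PPP1R15A (-1.47).

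The numbers called depended on the test and the filter. At an adjusted p of 0.05 the quasi-likelihood test called 0 genes. The likelihood ratio test called 109 genes for knockdown, 34 with sh-MIR100HG-1, 121 with sh-MIR100HG-2 and 91 between the shRNAs. DESeq2 called 129, 65, 165 and 103 in that order, and the test without the filter 392, 227, 517 and 679, of which 4, 5, 1 and 2 were among the 40 genes. MIR100HG passed the threshold with the likelihood ratio test (-1.86), DESeq2 (-1.84) and no filter (-1.86), and lay between -2.08 and -1.60 with each sample left out. Of the 40 genes, 5 had an unadjusted p under 0.05 for knockdown with the likelihood ratio test, 8 with DESeq2 and 13 without the filter. Without the filter there were 19 with sh-MIR100HG-1, 9 with sh-MIR100HG-2 and 6 between the shRNAs, and DESeq2 gave 1 with sh-MIR100HG-2. The cause was not tested.

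Same-numbered samples did not deviate together in every pair of groups (correlations across genes of -0.21 for control and sh-MIR100HG-1, 0.02 for control and sh-MIR100HG-2 and 0.50 for the shRNAs), so the replicate numbers were not taken to pair the samples. With the replicate block, 1 of the 40 genes had an unadjusted p under 0.05 with sh-MIR100HG-2 in place of 2, and 0 were called.

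Leaving out a sample leaves its group with 1, assumed to vary like the others. The genes called then ranged from 0 to 1 for knockdown, 0 to 3 with sh-MIR100HG-1, 0 to 5 with sh-MIR100HG-2 and 0 to 7 between the shRNAs. Of the 40 genes, 1 to 15, 0 to 12, 1 to 10 and 2 to 15 had an unadjusted p under 0.05 in that order. The median log2FC of the 40 ranged from 0.14 to 0.52 for knockdown, from 0.23 (without KD1-2) to 0.69 with sh-MIR100HG-1, from -0.25 (without KD2-2) to 0.38 with sh-MIR100HG-2, and from -0.65 to 0.10 between the shRNAs. Signs turned for DDIT3 (-0.09 without CTR2, -0.07 without KD1-2, -0.20 without KD2-2, highest 0.52), PHGDH (-0.14 without KD2-2, highest 1.33), SLC7A5 (-0.15 without KD2-2, highest 0.60), WARS1 (0.18 without CTR2, lowest -0.37) and, with sh-MIR100HG-2, ATF3 (0.19 without CTR1, lowest -3.13). With 2 samples a group, ATF3, NUPR1 and PHGDH had standard errors of 0.73, 0.73 and 0.69 for knockdown, although ATF3 had 801 to 14974 counts.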
